A study of Mus musculus with 12 samples.

Results

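Livers of high-fat-fed mice that received the compound C1 were compared with livers of chow-fed mice, as 6 of the 12 RNA-seq libraries of the series (3 NCD and 3 HFD+C1). The libraries were chosen by their labels, and no measured value entered the choice. The mice were C57BL/6N. The NCD group ate normal chow for 12 weeks. The HFD group ate a diet with 60% of its energy from fat for 12 weeks, and the HFD+C1 group ate that diet and was injected intraperitoneally with C1 at 5 mg/kg/day for the same 12 weeks. The series title calls C1 and C2, the compound of the remaining group, CYP4A inhibitors. The labels name no vehicle injection, no chow group with C1, no sex and no age. Diet, C1 and injection therefore changed together between the groups, and cannot be told apart. The HFD+C1 libraries share no sample with the HFD group, so the comparison asks which differences from chow are seen in high-fat-fed livers other than those of the HFD group. The NCD libraries are the same in both, and values from the HFD group are given beside those of HFD+C1 as description.

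CYP4A enzymes belong to the cytochrome P450 family and add a hydroxyl group to the far end of a fatty acid. In mouse liver several of their genes are targets of PPARα, the nuclear receptor that answers to fatty acids. A liver supplied with more fat and cholesterol than it exports stores triglyceride in droplets coated by perilipins and CIDE proteins. It represses the sterol synthesis genes that SREBP2 activates when cholesterol is scarce. Many mouse liver P450 genes are also set by the nuclear receptors CAR and PXR or by the sex-specific pattern of growth hormone release, which acts through STAT5.

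The 6 libraries differed in quality between the groups. Reads counted in genes numbered 9858279, 4281210 and 23147418 in NCD and 26493335, 22637737 and 18858230 in HFD+C1. In NCD replicate 1, 23.2% of all reads lay outside annotated features, against 4.30% to 10.4% in the other 5 libraries. Its albumin transcript took 1.27% of the reads in genes, against 4.41% to 5.00% in NCD replicates 2 and 3 and 6.91% to 7.26% in HFD+C1. Its log2 levels correlated across 8476 genes at 0.91 and 0.94 with the other NCD libraries, which correlated with each other at 0.98, while the HFD+C1 libraries correlated with each other at 0.98 to 0.99 (genes are not independent replicates). The summed hepatocyte markers, 8 genes of which 0 passed the test in either direction, ranged from 23780 to 65420 CPM (counts scaled to the reads in genes of the library) in NCD and from 92070 to 96690 CPM in HFD+C1. The 5 skeletal muscle markers summed to 98.6 CPM in NCD replicate 3, where Acta1 alone stood at 34.4 CPM, and to 0.0771 to 0.467 CPM in HFD+C1. Immunoglobulin kappa transcripts, listed as Igk, stood at 428 CPM in NCD replicate 1, 38.5 and 59.2 CPM in the other NCD libraries and 3.32 to 15.2 CPM in HFD+C1. The part of these differences in the results below was not tested. Levels are CPM scaled by TMM over the 9 libraries of NCD, HFD and HFD+C1, a scale that is not per gene length, so levels are compared between groups and not between genes.

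**Figure D1:**
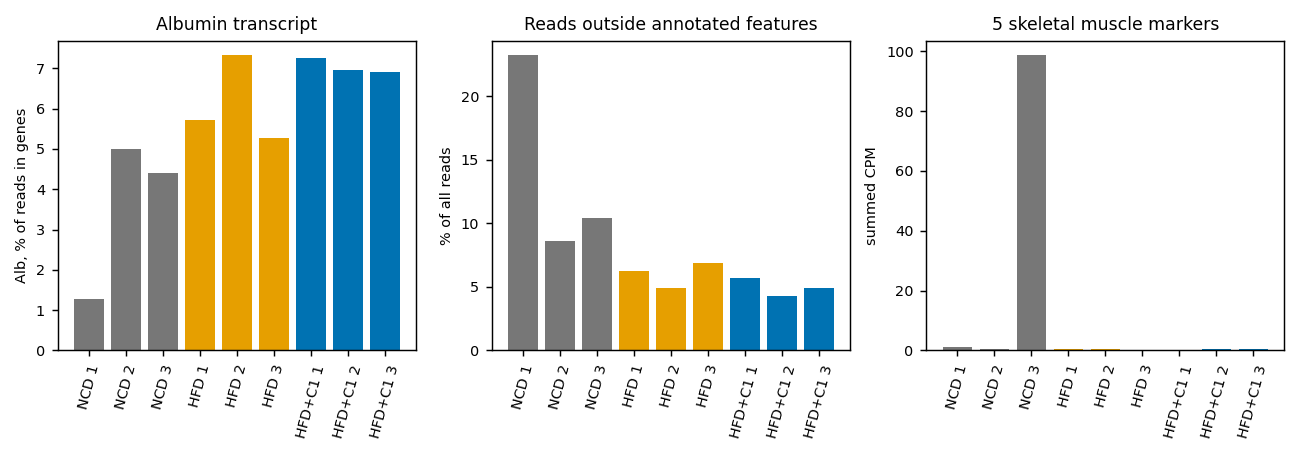
Library checks. Each bar is 1 library, coloured by group: the share of reads in genes taken by albumin (left, %), the share of all reads outside annotated features (middle, %) and the summed level of 5 skeletal muscle markers (right, CPM). NCD replicate 1 has the lowest albumin share, 1.27%, and NCD replicate 3 the muscle transcripts, 98.6 CPM.

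Of 13534 genes tested with edgeR's quasi-likelihood test, 460 (3.40%) were called at a Benjamini-Hochberg adjusted p under 0.05. There were 199 genes (1.47%) higher and 261 (1.93%) lower in HFD+C1. At an unadjusted p under 0.05 there were 3783 (28.0%). The groups did not overlap for 36.2% of the genes tested. The median log2 change over the genes tested was -0.02. The same fit of HFD against NCD called 836 of 13864 genes (6.03%), 359 higher (2.59%) and 477 lower (3.44%). HFD+C1 against HFD gave 7 calls among 13358 genes (0.0524%), 0 of them higher and 7 lower (0.0524%), with 1035 genes (7.75%) at an unadjusted p under 0.05.

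The number of calls moved widely with the libraries used. Without NCD replicate 1 there were 1583 calls, which included 412 of the 460. Without NCD replicate 3 there were 55. Leaving out HFD+C1 replicate 1, 2 or 3 left 11, 49 and 11 calls. The call was lost for 45, 59, 43 and 56 of the 71 genes named by rule when NCD replicate 3 or HFD+C1 replicate 1, 2 or 3, in that order, was left out, though of these 71 changes 1, that of Cish, reversed in a fit without 1 library.

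**Figure D2:**
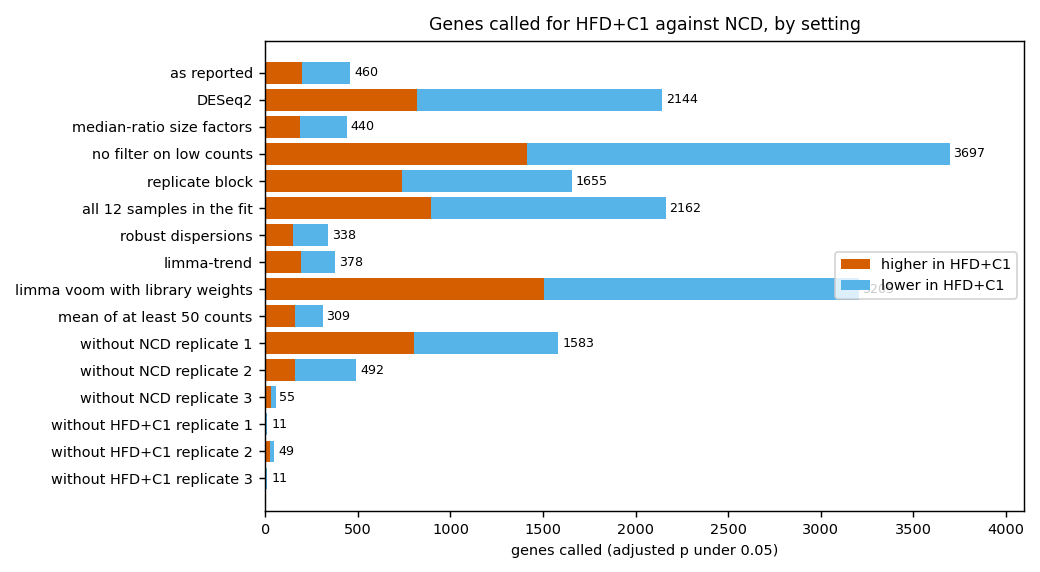
Genes called for HFD+C1 against NCD under each setting. Bars give the number higher (orange) and lower (blue) in HFD+C1, and the number at the end of each bar is their sum. It is 460 as reported, 1583 without NCD replicate 1 and 11 without HFD+C1 replicate 1 or 3.

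The genes that kept their call in each of the 6 fits that leave out 1 library were 8, singled out after their values were seen: 2010003K11Rik, Abcd2, Ces2a, Cfd, Csad, Hamp2, Ifi27l2b and Serpina4-ps1. Csad, whose product makes the taurine used to conjugate bile acids, stood at 241, 201 and 201 CPM in NCD and at 38.8, 26.5 and 32.4 CPM in HFD+C1. The groups lay far apart, 214 ± 23.3 against 32.6 ± 6.14 CPM (SD, n = 3), a 6.59-fold fall, with a log2 change of -2.71 ± 0.20 (SE) and an edgeR adjusted p of 0.00273. Csad (chromosome 15, 102176997 to 102205052, GRCm38) was at 35.5, 31.6 and 36.5 CPM in the HFD group. Ces2a, a carboxylesterase that hydrolyses lipids and drugs, stood at 723, 555 and 682 CPM in NCD and at 148, 131 and 140 CPM in HFD+C1, a 4.68-fold fall (edgeR adjusted p 0.00364). The HFD values of Ces2a, 135, 126 and 137 CPM, lay beside those of HFD+C1. Of the 75-base words in Ces2a transcripts, 11.4% also occur in another gene, so part of its reads may have been split or dropped.

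Hamp2, a paralog of the gene of the iron hormone hepcidin, was at 17.3, 22.4 and 19.6 CPM in NCD and at 113, 112 and 115 CPM in HFD+C1. It rose 5.75-fold with hardly any spread in HFD+C1 (log2 change 2.54 ± 0.17, edgeR adjusted p 0.00227). Its HFD values were 96.4, 89.5 and 83.8 CPM, the highest of which lay below the lowest HFD+C1 value. The HFD+C1 minus HFD change of Hamp2, 0.35 on the log2 scale, did not pass (edgeR adjusted p 0.417). Abcd2, a peroxisomal transporter of very long-chain fatty acids, rose 6.25-fold, from 3.25, 2.37 and 3.25 CPM to 23.2, 16.5 and 15.6 CPM. Ifi27l2b, a member of an interferon-induced family, rose from 2.98, 3.23 and 1.58 CPM to 25.6, 33.4 and 33.0 CPM. The unnamed transcript 2010003K11Rik rose 9.32-fold, with NCD between 2.63 and 5.37 CPM and HFD+C1 between 31.2 and 41.2 CPM. Serpina4-ps1, a serpin pseudogene, fell from 36.2, 39.8 and 29.1 CPM in NCD to 2.12, 2.71 and 3.52 CPM in HFD+C1, with HFD between them at 6.19, 17.8 and 5.24 CPM. Its HFD+C1 minus HFD change, -1.81 on the log2 scale, did not pass the test (edgeR adjusted p 0.192).

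**Figure D3:**
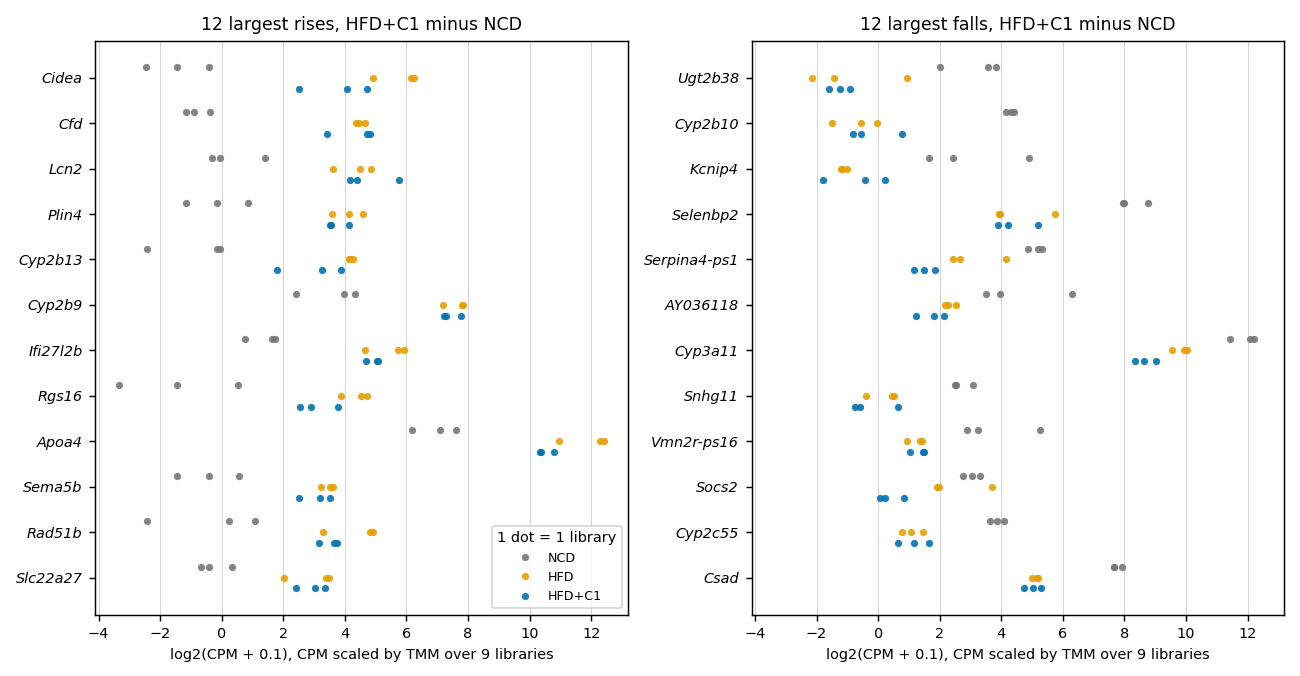
Levels of the 12 largest rises (left) and 12 largest falls (right) among the genes named by rule, as log2(CPM + 0.1). Each dot is 1 library, grey for NCD, orange for HFD and blue for HFD+C1. In each of the 24 genes the NCD dots lie apart from the HFD+C1 dots, as the rule requires. The HFD dots lie mostly beside the HFD+C1 dots, with Socs2 the gene in which an HFD dot lies among or beyond those of NCD.

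Several genes of lipid droplets and fat uptake rose. Of 19 tested members of the lipid droplet list, 4 rose, 0 fell and 15 did not pass (21.1% called, against 1.47% of all genes tested called higher). The median log2 change was 0.60, against -0.02 over all genes tested. Cidea and Cidec encode proteins that fuse droplets, Plin4 is a droplet coat protein and Fitm1 acts in droplet formation. Cidea gave 3, 3 and 2 counts in NCD (0.263, 0.645 and 0.0833 CPM) and 16.7, 5.56 and 26.2 CPM in HFD+C1. Because the NCD counts were at the floor of 3, its size is given as the ratio of pooled counts per read in genes, 71.0, with an exact binomial 95% interval from 35.9 to 165 that covers counting error only. Cidea passed the test (edgeR adjusted p 0.0152), and its HFD values were higher still, at 75.4, 29.9 and 70.2 CPM. The HFD+C1 minus HFD change of Cidea was -1.86 on the log2 scale and did not pass (edgeR adjusted p 0.206).

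Plin4 stood at 0.351, 1.72 and 0.791 CPM in NCD and at 11.5, 11.3 and 17.6 CPM in HFD+C1, a 14.1-fold rise (log2 change 4.05 ± 0.45, edgeR adjusted p 0.00794). Cidec rose 7.64-fold, from 1.75, 5.16 and 1.96 CPM to 22.5, 7.01 and 38.3 CPM, and its lowest HFD+C1 library came close to the highest NCD library. Fitm1 rose 2.31-fold, from 17.5 ± 4.95 to 40.4 ± 4.50 CPM (SD, n = 3). Plin2, the main hepatic droplet coat protein, had 428, 640 and 483 CPM in NCD and 837, 844 and 778 CPM in HFD+C1, groups that did not overlap, but did not pass (edgeR adjusted p 0.0857). Without NCD replicate 1, 8 members of this list were called higher, and without NCD replicate 3 or without HFD+C1 replicate 1 or 3 there were 0. The HFD group gave 6 higher and 0 lower among them and a median log2 change of 0.64.

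Of 12 tested genes of fatty acid uptake and binding, 2 rose and 0 fell (16.7%, against 1.47% of all genes called higher). Cd36, the scavenger receptor that takes up fatty acids, stood at 25.5, 35.3 and 27.8 CPM in NCD and at 96.3, 94.8 and 121 CPM in HFD+C1, a 3.52-fold rise (log2 change 1.83 ± 0.20, edgeR adjusted p 0.00736). Fabp2, a fatty acid-binding protein, rose 2.96-fold, from 77.2, 91.4 and 94.8 CPM to 274, 242 and 264 CPM. Fabp1, the main fatty acid-binding protein of hepatocytes, had overlapping groups and a log2 change of 0.36 (edgeR adjusted p 0.325). Apoa4, an apolipoprotein secreted with triglyceride-rich particles, rose 10.9-fold, from 72.2, 195 and 135 CPM to 1278, 1330 and 1783 CPM. In the HFD group Apoa4 was at 5428, 1974 and 4948 CPM, above each HFD+C1 library, although the HFD+C1 minus HFD change of -1.48 did not pass (edgeR adjusted p 0.106). Apoa4 was the 1 called gene among 16 tested of the apolipoprotein list (6.25%, against 1.47% of all genes called higher).

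Cfd, complement factor D, is a protein best known from fat cells. Its levels were 0.351, 0.430 and 0.666 CPM in NCD and 26.3, 10.7 and 28.2 CPM in HFD+C1, with a log2 change of 5.35 ± 0.50 (edgeR adjusted p 0.00448). The other 4 adipocyte markers, Adipoq, Lep, Retn and Adig, stood at 0.458 CPM or less in each of the 9 libraries, and Adipoq and Retn had 3 counts or fewer in each of them. The 5 markers together summed to 0.527 to 1.25 CPM in NCD and to 10.8 to 28.7 CPM in HFD+C1, nearly all of it Cfd. In bulk tissue, more cells of a type and more RNA per cell cannot be told apart, here and for every gene below. Lcn2, lipocalin 2, a protein of the acute-phase response, rose 22.5-fold, from 0.702, 0.860 and 2.54 CPM to 17.8, 53.6 and 21.0 CPM. Rgs16, a regulator of G-protein signalling, rose, with NCD at 0.263, 0 and 1.33 CPM and HFD+C1 at 5.67, 13.7 and 7.37 CPM. The log2 change was 3.60 ± 0.68 (SE). Its NCD counts were 3, 0 and 32, at or under the floor of 3 in replicates 1 and 2. The 16.8-fold ratio of its group means is therefore uncertain. Sema5b, Rad51b and Slc22a27 were the remaining genes of the 12 largest rises, with log2 changes of 3.32, 3.30 and 3.19. Leaving out 1 library gave log2 changes of 3.09 to 5.56 for Rgs16, 2.82 to 4.46 for Sema5b and 2.69 to 4.81 for Rad51b. Each was highest without NCD replicate 3.

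Genes of fatty acid oxidation and ketogenesis followed a mixed pattern. Of 26 tested, 3 rose and 1 fell (15.4% called, against 3.40% of all genes tested), with a median log2 change of 0.39. Cpt1a, which brings fatty acids into mitochondria, stood at 27.8, 88.8 and 82.7 CPM in NCD and at 216, 252 and 256 CPM in HFD+C1, a 3.63-fold rise (edgeR adjusted p 0.0482). Vnn1, a pantetheinase and PPARα target, rose from 11.2, 35.1 and 26.7 CPM to 96.2, 92.4 and 98.3 CPM. Fgf21, a fasting hormone made by the liver, rose 6.54-fold from 1.08 ± 0.80 to 7.05 ± 2.69 CPM (SD, n = 3). NCD replicate 1 was the lowest of the NCD libraries for Cpt1a and Vnn1. Pdk4, a kinase that shuts off pyruvate dehydrogenase and is also a PPARα target, fell 3.38-fold, from 39.4, 24.1 and 31.5 CPM to 15.0, 5.33 and 7.80 CPM.

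Among 17 genes of lipogenesis and triglyceride synthesis, 1 fell and 0 rose (5.88%, 1 gene, against 1.93% of all genes called lower), with a median log2 change of 0.42. Mlxipl, which encodes the glucose-sensing factor ChREBP, went from 124, 93.8 and 92.2 CPM to 46.5, 53.0 and 52.2 CPM, a 2.04-fold fall (edgeR adjusted p 0.0340). Fasn, the fatty acid synthase, had 197, 208 and 102 CPM in NCD and 280, 92.5 and 302 CPM in HFD+C1, groups that overlapped. Scd1, the stearoyl-CoA desaturase, likewise overlapped, and HFD+C1 replicate 2 was the lowest of the 9 libraries at 1428 CPM.

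Sterol synthesis genes were lower, with 3 of 25 passing the test. All 25 members of the cholesterol list were tested and each had a negative log2 change, with a median of -1.11. Of these 3 fell, 12.0% against the 1.93% of all genes tested that were called lower, and 0 rose. The groups did not overlap for 14 of the 25, where 36.2% of all genes tested had groups that did not overlap. Among them Pmvk, phosphomevalonate kinase, fell 3.20-fold, from 174, 137 and 110 CPM to 70.0, 26.8 and 34.8 CPM (log2 change -1.67 ± 0.36, edgeR adjusted p 0.0486). Stard4, which carries sterol between membranes, fell 2.26-fold, from 73.1 ± 13.2 to 32.4 ± 9.11 CPM (SD, n = 3).

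HFD+C1 replicate 1 was the highest of its group for Pmvk and Stard4 and for the 4 genes below, so that the spread within HFD+C1 was wide. Sqle, squalene epoxidase, had 77.0, 55.7 and 54.0 CPM in NCD and 24.9, 5.23 and 6.45 CPM in HFD+C1 (edgeR adjusted p 0.0585). Msmo1, a sterol demethylase, had 686, 229 and 266 CPM in NCD and 122, 39.2 and 53.8 CPM in HFD+C1 (edgeR adjusted p 0.0508). Cyp51, the lanosterol demethylase, went from 451, 186 and 222 CPM to 113, 34.1 and 45.6 CPM (edgeR adjusted p 0.0578). For these the NCD and HFD+C1 libraries did not overlap, yet the change missed the threshold. Hmgcs1, the synthase at the start of the pathway, had 595, 309 and 348 CPM in NCD and 291, 99.1 and 145 CPM in HFD+C1 (edgeR adjusted p 0.109). Srebf2 itself, which encodes SREBP2, had a log2 change of -0.04. NCD replicate 1 was the highest NCD library for Pmvk, Msmo1, Cyp51, Sqle and Hmgcs1. Without it, 13 members were called lower and the median was -0.89. Without NCD replicate 3 or HFD+C1 replicate 2 or 3, 0 were called, and limma voom with library weights called 21. In the HFD group 16 were called lower, with a median of -1.41. The HFD+C1 minus HFD median was 0.40, with 0 members called.

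Promoters of this list are shown because each of its 25 members had a negative change, although 3 passed the test. RefSeq promoters (GRCm38.p6, the assembly that mm10 denotes) were found for 17 of the 25 genes, and 250 bases before each start were searched on both strands. The Pmvk sequence (chr3:89454291-89454540, plus strand) belongs to a called member, and capitals mark its CCAAT match, 136 to 132 bases before the start. Pmvk has another start in the table, with no match. Hmgcs1 (chr13:119690101-119690350, plus strand) was chosen after its matches were seen, as the member that holds a sterol regulatory element, TCACNCCAC, 137 to 129 bases before the start. Capitals mark that match and 3 CCAAT matches on the minus strand, which read ATTGG here.
Pmvk: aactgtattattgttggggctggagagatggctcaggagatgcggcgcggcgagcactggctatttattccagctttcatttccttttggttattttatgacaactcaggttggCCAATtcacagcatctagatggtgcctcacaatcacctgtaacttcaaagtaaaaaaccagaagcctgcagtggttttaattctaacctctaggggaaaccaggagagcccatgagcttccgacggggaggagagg
Hmgcs1: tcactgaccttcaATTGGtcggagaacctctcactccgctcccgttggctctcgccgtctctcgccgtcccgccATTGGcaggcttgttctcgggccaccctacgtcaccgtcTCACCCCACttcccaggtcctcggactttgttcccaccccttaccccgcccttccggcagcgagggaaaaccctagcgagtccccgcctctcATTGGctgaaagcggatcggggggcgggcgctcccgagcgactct
CCAAT occurred near at least 1 start in 16 of the 17 genes (94.1%), against 37.5% of the 27025 genes of the promoter table, and in 33.8% of its 32851 promoters. The sterol regulatory element occurred in 1 of the 17 genes (5.88%), against 1.22% of all genes and 1.05% of all promoters. The E-box CACGTG occurred in 23.5% of the 17 genes, against 6.86% of all genes and 6.02% of all promoters. The listed and all genes had 1.18 and 1.22 starts per gene. The letters of these motifs do not overlap in Hmgcs1, and a match is a description of the sequence only.

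Genes of bile acid synthesis and sterol export were split. Of 17 tested, 3 rose and 2 fell (29.4% called, against 3.40% of all genes). Cyp7a1, the rate-limiting enzyme of bile acid synthesis, stood at 53.7, 37.0 and 31.6 CPM in NCD and at 16.7, 11.1 and 17.7 CPM in HFD+C1, a 2.69-fold fall (log2 change -1.42 ± 0.26, edgeR adjusted p 0.0371). Its HFD values were lower still, at 7.76, 4.33 and 6.83 CPM, and did not overlap those of HFD+C1. The HFD+C1 minus HFD change of Cyp7a1, 1.27, did not pass (edgeR adjusted p 0.0925). Cyp7b1, the oxysterol hydroxylase of the alternative bile acid pathway, fell 3.07-fold, from 359, 260 and 343 CPM to 90.3, 145 and 77.9 CPM. Abcg5, part of the transporter that puts sterols into bile, rose 2.24-fold, from 13.3, 18.7 and 21.7 CPM to 34.7, 41.9 and 43.6 CPM. Its partner Abcg8 had groups that did not overlap and a log2 change of 1.53 that did not pass (edgeR adjusted p 0.105), and passed without NCD replicate 1, which was its lowest library at 6.58 CPM. Abcb4, the phospholipid exporter of bile, rose from 52.9, 132 and 137 CPM to 287, 340 and 347 CPM. Mylip, a ubiquitin ligase that degrades the LDL receptor, rose 2.77-fold, from 3.09 ± 0.41 to 8.58 ± 0.79 CPM (SD, n = 3).

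Drug-metabolising P450 genes moved in both directions. Of 22 tested members, 3 rose and 5 fell (36.4% called, against 3.40% of all genes). Cyp3a11, the major CYP3A enzyme and a classic target of PXR, stood at 2772, 4294 and 4729 CPM in NCD and at 322, 394 and 519 CPM in HFD+C1, a 9.55-fold fall (log2 change -3.25 ± 0.30, edgeR adjusted p 0.00448). The HFD libraries lay between, at 971, 745 and 1038 CPM, and the 3 groups did not overlap. The HFD+C1 minus HFD change of Cyp3a11 was -1.15 ± 0.17 (edgeR adjusted p 0.0377), so its distance from chow differed with and without C1. Cyp3a11 lies on chromosome 5, 145854607 to 145879854.

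Cyp2b10, the classic CAR target, fell 21.9-fold, from 17.6, 21.1 and 19.7 CPM in NCD to 0.578, 0.467 and 1.63 CPM in HFD+C1 (log2 change -4.47 ± 0.42, edgeR adjusted p 0.00448). The HFD group was at 0.885, 0.254 and 0.587 CPM. Its neighbours on chromosome 7 rose. Cyp2b9 went from 5.18, 15.7 and 20.1 CPM to 155, 150 and 220 CPM, a 12.8-fold rise (log2 change 3.68 ± 0.46, edgeR adjusted p 0.0125). Cyp2b13 rose 15.7-fold, from 0.0878, 0.860 and 0.791 CPM to 3.35, 9.44 and 14.6 CPM (edgeR adjusted p 0.0371). The genes Cyp2b10, Cyp2b13 and Cyp2b9 lie at 25897658 to 25926624, 26061388 to 26096197 and 26173350 to 26210661. They are near paralogs, and 2.76%, 16.4% and 5.16% of the 75-base words in their transcripts occur in another gene, so the split of reads between Cyp2b13 and its kin is uncertain.

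The 250 bases before their starts in the RefSeq promoter table (GRCm38.p6, plus strand) are shown. They were chosen after the values were seen, because neighbours with opposite changes can be set side by side. They are chr7:26173159-26173408 for Cyp2b9, chr7:26061245-26061494 for Cyp2b13 and chr7:25897408-25897657 for Cyp2b10. The starts of Cyp2b9 and Cyp2b13 in the promoter table differ from the gene starts given above, 26173350 and 26061388. The last part of these 2 windows therefore lies inside the genes as placed above, and that of Cyp2b10 does not. Capitals mark the bases of Cyp2b9 and Cyp2b13 that differ between them, and in Cyp2b10 those that differ from Cyp2b9 in an alignment with gaps.
Cyp2b9: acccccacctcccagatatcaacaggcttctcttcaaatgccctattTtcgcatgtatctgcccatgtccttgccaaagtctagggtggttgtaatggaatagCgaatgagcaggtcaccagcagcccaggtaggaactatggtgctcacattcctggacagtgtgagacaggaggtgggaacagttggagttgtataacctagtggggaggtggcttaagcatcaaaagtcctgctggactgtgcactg
Cyp2b13: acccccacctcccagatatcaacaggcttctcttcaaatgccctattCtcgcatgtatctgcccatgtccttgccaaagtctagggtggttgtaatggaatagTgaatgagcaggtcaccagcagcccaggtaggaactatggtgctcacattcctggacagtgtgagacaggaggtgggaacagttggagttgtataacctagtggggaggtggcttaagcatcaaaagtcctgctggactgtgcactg
Cyp2b10: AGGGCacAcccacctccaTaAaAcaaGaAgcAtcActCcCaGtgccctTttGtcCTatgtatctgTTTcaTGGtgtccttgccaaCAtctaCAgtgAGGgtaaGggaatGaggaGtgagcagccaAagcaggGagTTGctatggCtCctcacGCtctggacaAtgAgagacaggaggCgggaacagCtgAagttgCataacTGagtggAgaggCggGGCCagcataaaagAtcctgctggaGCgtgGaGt
Cyp2b9 and Cyp2b13, which both rose, were identical at 248 of 250 bases (99.2%). Cyp2b9 and Cyp2b10, which moved in opposite directions, were identical at 186 of 262 aligned columns (71.0%). The sequences are a description, and their part in the changes was not tested.

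Cyp2c55 fell 6.63-fold, from 14.6, 16.8 and 12.4 CPM to 2.12, 1.45 and 3.03 CPM, and Cyp2c70, an enzyme that makes the muricholic acids of mice, fell 2.69-fold, from 411, 405 and 418 CPM to 134, 157 and 168 CPM. Cyp2c38 rose (log2 change 1.77, edgeR adjusted p 0.0364), and Por, the reductase that gives electrons to microsomal P450 enzymes, fell (log2 change -0.94, edgeR adjusted p 0.0482). Transcripts of the receptors themselves did not pass: Nr1i2, which encodes PXR, had a log2 change of 0.06 and Nr1i3, which encodes CAR, of 0.64. Ugt2b38, a glucuronosyltransferase gene, had the largest fall among the genes named by rule, from 14.0, 11.8 and 3.96 CPM to 0.231, 0.327 and 0.434 CPM (log2 change -4.87 ± 0.57, edgeR adjusted p 0.00980).

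Male-biased hepatocyte genes that passed the test fell, and of the female-biased genes that passed most rose. Of 19 tested male-biased genes, 7 fell and 0 rose (36.8%, against 1.93% of all genes called lower), with a median log2 change of -1.32. Selenbp2, a selenium-binding protein, stood at 437, 256 and 249 CPM in NCD and at 14.7, 36.8 and 18.6 CPM in HFD+C1, a 13.4-fold fall (log2 change -3.74 ± 0.41, edgeR adjusted p 0.00736). Elovl3, a fatty acid elongase, fell 3.11-fold, from 1007, 983 and 965 CPM to 425, 240 and 285 CPM. Nudt7, a peroxisomal coenzyme A hydrolase, fell 3.07-fold, from 1410, 759 and 845 CPM to 313, 359 and 308 CPM. The other called members were Cyp7b1, Gstp1, Cyp4a12a and Cyp4a12b. The major urinary proteins, whose genes are near-identical copies with uncertain counts, did not pass in the 7 tested members of the list, with log2 changes from -2.08 for Mup11 (edgeR adjusted p 0.0646) through -1.80 for Mup12, -1.12 for Mup21, -1.09 for Mup1, -0.78 for Mup17 and -0.36 for Mup20 to -0.08 for Mup3. Mup11 stood at 73.1, 65.4 and 107 CPM in NCD and at 7.25, 36.7 and 14.4 CPM in HFD+C1, groups that did not overlap.

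Of 12 tested female-biased genes, 3 rose (Cyp2b9, Cyp2b13 and Hao2) and 1 fell (Cyp2c69), 33.3% called against 3.40% of all genes, with a median of 1.04. Hao2, a peroxisomal hydroxyacid oxidase, went from 0.351, 1.29 and 1.12 CPM to 3.31, 4.44 and 4.66 CPM. Cyp2c69 went from 1.23, 1.94 and 1.62 CPM to 0.0771, 0.187 and 0.0542 CPM. Its HFD+C1 counts were 2, 4 and 1, near the floor of 3, and it averaged 11.5 counts over the libraries of the fit. Without NCD replicate 3 it was not tested. Members of the other 8 had log2 changes from -0.30 for Cyp2a4 to 1.32 for Cyp17a1. The Y-linked transcript Ddx3y stood at 34.0 to 50.8 CPM in NCD and 29.4 to 31.9 CPM in HFD+C1, and Xist at 0 to 2.63 CPM in NCD and 0 to 0.154 CPM in HFD+C1.

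Socs2, a STAT5 target that dampens growth hormone signalling, fell 6.63-fold, from 9.74, 6.67 and 8.08 CPM in NCD to 1.08, 0.934 and 1.68 CPM in HFD+C1 (log2 change -2.74 ± 0.32, edgeR adjusted p 0.00952). The HFD libraries were at 3.64, 12.8 and 3.85 CPM, which spanned the NCD values, and HFD minus NCD was -0.28 (edgeR adjusted p 0.724). The HFD+C1 minus HFD change of Socs2, -2.46 ± 0.46, did not pass (edgeR adjusted p 0.0984), so a difference between the high-fat groups was not shown. Igfbp2, an IGF-binding protein, fell 2.70-fold, from 380, 464 and 602 CPM to 177, 192 and 168 CPM. Socs2 and Igfbp2 were the 2 called of 12 tested genes of growth hormone and STAT5 signalling (16.7%, against 1.93% of all genes called lower). The remaining 10 did not pass, among them Igf1 (log2 change 0.55), Ghr (0.48) and Stat5b (-0.19).

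**Figure D4:**
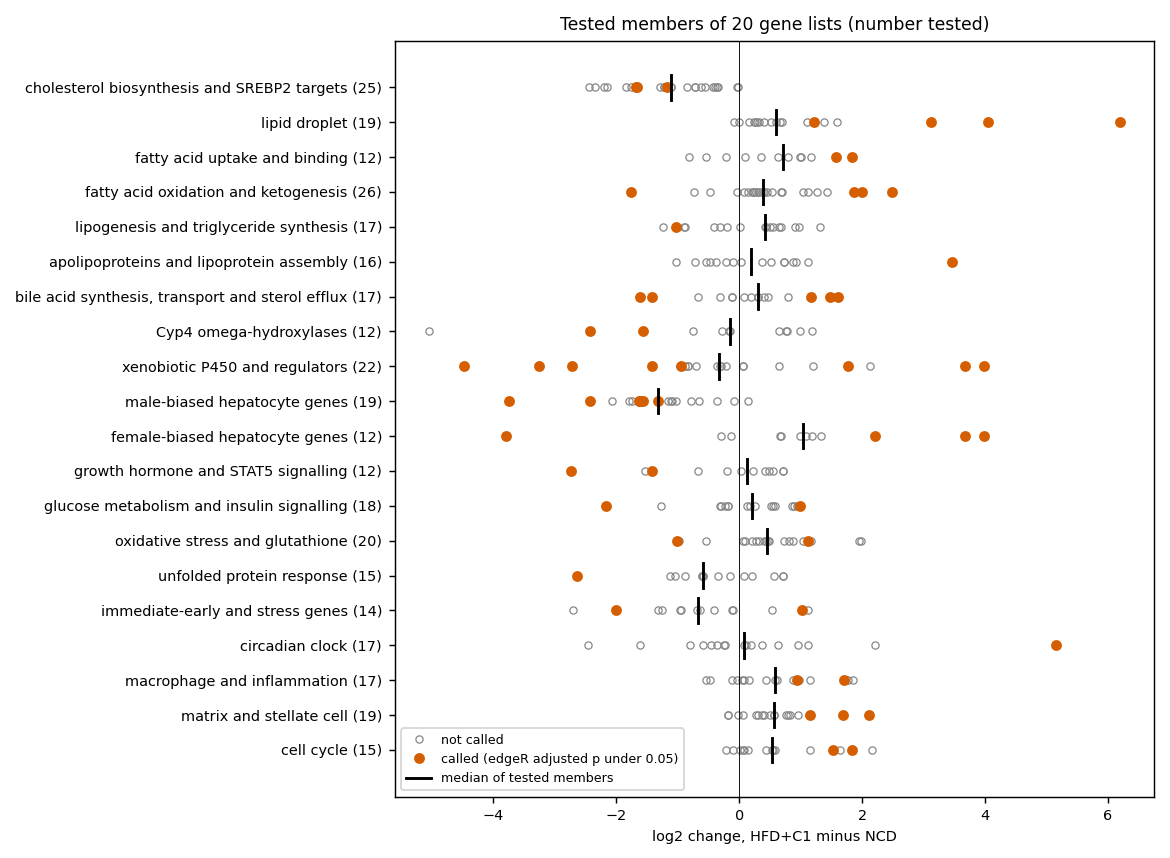
Log2 change, HFD+C1 minus NCD, of each tested member of 20 gene lists (number tested in brackets). Filled orange points were called, open grey points were not, and black bars are medians. The cholesterol list lies at or below 0 in full with a median of -1.11, the male-biased list has a median of -1.32 and the lipid droplet list reaches 6.19 at Cidea.

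Of 12 tested Cyp4 genes, 2 fell and 0 rose (16.7%, against 1.93% of all genes called lower). Cyp4a12b fell 5.46-fold, from 32.8, 54.8 and 40.1 CPM in NCD to 6.67, 11.7 and 5.04 CPM in HFD+C1 (log2 change -2.43 ± 0.34, edgeR adjusted p 0.0183). Cyp4a12a fell 2.96-fold, from 145, 252 and 178 CPM to 56.4, 95.8 and 41.7 CPM (edgeR adjusted p 0.0486). Both are male-biased and share 41.3% and 40.8% of their 75-base words with another gene, so their reads cannot be assigned with certainty. Cyp4a10 had 66.6, 156 and 150 CPM in NCD and 284, 269 and 294 CPM in HFD+C1. Cyp4a14, with no 75-base word shared, had 171, 109 and 181 CPM in NCD and 373, 237 and 307 CPM in HFD+C1. Neither group pair overlapped, and neither change passed, at 1.19 (edgeR adjusted p 0.0661) and 0.99 (0.0638). Both passed without NCD replicate 1, at 0.87 (edgeR adjusted p 0.00258) and 1.05 (0.0147). Cyp4a31 and Cyp4a32 had log2 changes of 0.65 and 0.78 that did not pass, and Cyp4a29 gave 4.39 CPM in NCD replicate 1 but no more than 0.292 CPM in the other 8 libraries. The HFD+C1 minus HFD changes of Cyp4a10 (0.09), Cyp4a14 (0.39), Cyp4a12a (-0.27) and Cyp4a12b (-0.11) did not pass.

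Among 18 tested genes of glucose metabolism and insulin signalling, 1 rose and 1 fell (11.1% called, 2 genes, against 3.40% of all genes). Irs2, an insulin receptor substrate, fell 4.49-fold, from 21.4, 11.6 and 14.9 CPM to 3.05, 4.72 and 2.93 CPM. Slc2a2, the hepatocyte glucose transporter, rose 1.97-fold, from 79.8 ± 5.18 to 157 ± 21.2 CPM (SD, n = 3). Of 20 oxidative stress and glutathione genes, 1 rose and 1 fell (10% called, 2 genes, against 3.40%). Nfe2l2, which encodes the factor NRF2, went from 16.1, 24.7 and 27.4 CPM to 45.6, 48.8 and 54.0 CPM, and Gsta4, a glutathione transferase, from 206, 240 and 247 CPM to 124, 101 and 118 CPM. Of 15 unfolded protein response genes, Asns, asparagine synthetase, was the 1 that fell (6.67%, against 1.93% of all genes called lower), from 15.1, 5.16 and 8.75 CPM to 2.12, 1.45 and 1.08 CPM.

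Of 14 tested immediate-early and stress genes, Cdkn1a, the cell cycle inhibitor p21, rose and Egr1, an immediate-early transcription factor, fell (14.3% called, 2 genes, against 3.40% of all genes). Egr1 stood at 7.81, 9.68 and 16.6 CPM in NCD and at 3.31, 3.36 and 1.90 CPM in HFD+C1. Of 17 clock genes, Dbp, an output gene of the circadian clock, was the 1 that rose (5.88%, against 1.47% of all genes called higher). It had 1, 0 and 2 counts in NCD and 27, 98 and 53 counts in HFD+C1, a pooled ratio of 32.5 with an exact binomial 95% interval from 11.0 to 159. Log2 changes in the clock list ran from -2.46 to 5.16, 9 positive and 8 negative, with a median of 0.07. As reported, 0 clock genes were called lower. Other settings with all libraries called 0 to 4 higher and 0 to 4 lower. The hour of sampling is not in the labels.

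Of 17 tested macrophage and inflammation genes, 2 rose (11.8%, against 1.47% of all genes called higher). Clec4f, a lectin of Kupffer cells, the resident macrophages of the liver, stood at 47.9, 68.0 and 56.6 CPM in NCD and at 102, 127 and 98.7 CPM in HFD+C1, a 1.90-fold rise (log2 change 0.94 ± 0.20, edgeR adjusted p 0.0482). In the HFD group Clec4f was at 65.1, 74.0 and 66.2 CPM, which overlapped NCD (log2 change 0.26, edgeR adjusted p 0.375) and lay below HFD+C1, and HFD+C1 minus HFD was 0.69 (edgeR adjusted p 0.0984). Cd68, a lysosomal macrophage protein, rose 3.28-fold, from 1.93, 2.80 and 3.25 CPM to 5.90, 9.95 and 10.3 CPM. Vsig4, another Kupffer cell gene, had 1.58, 7.74 and 9.33 CPM in NCD and 18.5, 26.1 and 22.8 CPM in HFD+C1 and did not pass (edgeR adjusted p 0.0734). Il1b (log2 change -0.48) and Ccl2 (0.62), an inflammatory cytokine and a monocyte chemokine, had overlapping groups and did not pass. The list's median was 0.59 for HFD+C1 minus NCD, 0.09 for HFD minus NCD and 0.56 for HFD+C1 minus HFD, in which 0 members were called.

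Of 19 tested matrix and stellate cell genes, 3 rose (15.8%, against 1.47%). Fn1, fibronectin, also made by hepatocytes, stood at 246, 371 and 396 CPM in NCD and at 829, 1300 and 1141 CPM in HFD+C1, a 3.23-fold rise. Col3a1 rose 2.19-fold, from 9.32 ± 1.82 to 20.4 ± 3.39 CPM, and Col1a1, the main chain of scar collagen, 4.34-fold, from 1.02 ± 0.34 to 4.42 ± 1.64 CPM (SD, n = 3). Of 15 cell cycle genes, 2 rose (13.3%, against 1.47%). Mki67, a marker of dividing cells, went from 1.23, 0.645 and 1.17 CPM to 4.90, 3.22 and 3.36 CPM, and Ccnd1, cyclin D1, from 2.37, 5.59 and 4.54 CPM to 10.2, 14.0 and 10.8 CPM.

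Some falls rested in size on NCD replicate 1. Kcnip4, a potassium channel-interacting protein, had 29.8 CPM in that library and 3.01 and 5.25 CPM in the other NCD libraries, against 0.187 to 1.08 CPM in HFD+C1. Its log2 change went from -4.28 to -2.74 without that library. AY036118 had 77.6, 11.2 and 15.6 CPM in NCD, and its change went from -3.38 to -2.05. The pseudogene Vmn2r-ps16 had 38.2, 9.46 and 7.33 CPM in NCD, and its change went from -2.91 to -1.75. The 3 genes remained called without that library, as the rule that named them requires. The 261 genes called lower also included genes of skeletal muscle, among them Myh2, Myl1, Mybpc1, Ttn, Actn2 and Ryr1. The skeletal muscle markers summed to 98.6 CPM in NCD replicate 3, and of the 4 markers tested 0 were called. Levels of the called muscle genes in each library are not given here. The part of NCD replicate 3 in their falls was not tested. Snhg11, a noncoding host gene of small RNAs, had 8.43, 5.59 and 5.66 CPM in NCD and 1.47, 0.561 and 0.488 CPM in HFD+C1. Called genes with groups that did not overlap and a mean of at least 50 counts numbered 330. Of these, 42 carried a LOC, Gm or RIKEN-style symbol. Such symbols took 15 of their 25 largest falls and 2 of their 25 largest rises.

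**Figure D5:**
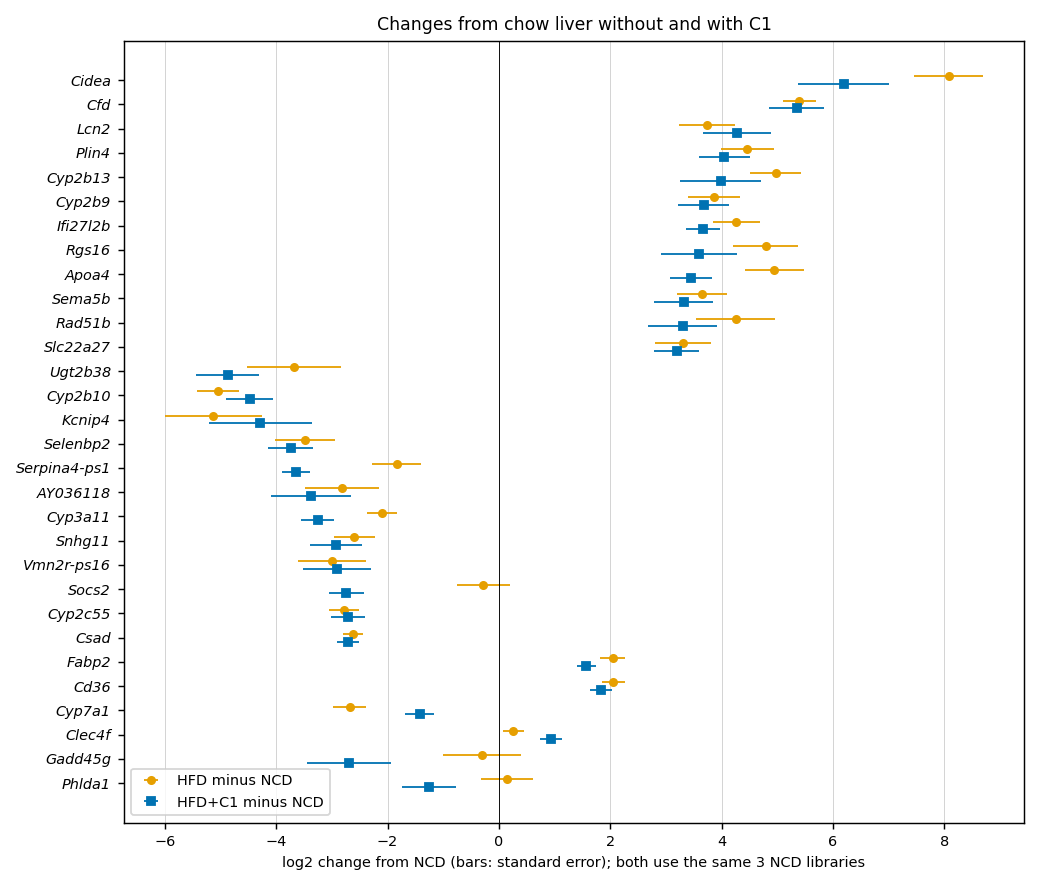
Log2 change from NCD in HFD (orange circles) and HFD+C1 (blue squares) for 30 genes, with standard errors. Both use the same NCD libraries, so likeness between the 2 sets of points is partly built in. Socs2, Gadd45g and Phlda1 lie near 0 for HFD and below 0 for HFD+C1, and Cyp3a11 lies at -2.09 for HFD and -3.25 for HFD+C1.

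Gadd45g and Phlda1 were called between the high-fat groups and missed the call against chow as reported. Gadd45g, a stress sensor of the GADD45 family, had 8.51, 54.6 and 7.21 CPM in NCD, 21.6, 11.6 and 20.8 CPM in HFD and 3.16, 3.78 and 3.36 CPM in HFD+C1. Its HFD+C1 minus NCD change of -2.70 did not pass (edgeR adjusted p 0.0761) although HFD+C1 lay below each NCD library, and its HFD+C1 minus HFD change was -2.38 ± 0.23 (edgeR adjusted p 0.000753). Without NCD replicate 2, the highest, the change from chow was -1.16 (edgeR adjusted p 0.0505). Without NCD replicate 1 it was -3.05 and passed (edgeR adjusted p 0.00772), as it did in 5 of the 9 other settings with all libraries. Phlda1 had 51.8, 133 and 29.1 CPM in NCD and 27.4, 30.3 and 30.6 CPM in HFD+C1, groups that overlapped (log2 change -1.26, edgeR adjusted p 0.138). It passed against chow without NCD replicate 1 (edgeR adjusted p 0.0484) and in 3 of the 9 other settings. Its HFD values, 74.3, 88.2 and 70.1 CPM, did not overlap those of HFD+C1 (log2 change -1.39 ± 0.12, edgeR adjusted p 0.000580). Cish, a STAT5 target of the SOCS family, had 0.527, 12.3 and 1.46 CPM in NCD and 2.54, 0.420 and 4.99 CPM in HFD+C1 and showed no call in any fit.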

How the data were processed

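Mouse liver RNA of 12 samples was sequenced. Libraries were prepared from total RNA on a microfluidic instrument, per the labels. The submitters' processing notes name Trimmomatic 0.39, STAR 2.7, DESeq2 and mm10, without roles. The authors deposited read counts per gene for 50559 symbols in 3 tables. The tables are named as normalized, but their values are whole numbers with uneven totals, and the HFD columns repeated across tables differ in 0 cells, so they were used as raw counts. Strand use in counting is not given in the sources used here.

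NCD and HFD+C1 columns came from separate tables and were joined by symbol. The 4 rows that name no gene held 27.3% to 58.1% of the reads of the 9 libraries and were left out. Each comparison kept the genes whose counts averaged 10 or more over its 6 libraries, which were tested with edgeR 4.0.16 (R 4.3.3) by the quasi-likelihood F test, with TMM scaling, no covariates and Benjamini-Hochberg adjustment. Standard errors were computed as the log2 change over the square root of F. The labels number the samples as biological replicates, and no statement of separate animals beyond that is given. The p-values therefore weigh a group difference against the variation between these samples, which is estimated with information from all genes tested. The code was tested on simulated data.

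Genes were named by rule: up to 12 in each direction with the largest change among called genes with groups that did not overlap, a mean of at least 50 counts, a call also without NCD replicate 1 and no LOC, Gm or RIKEN-style symbol; up to 4 called members of each list; and Gadd45g, Phlda1, Cish and the tested Cyp4a genes. Other members are named with their values to describe their list, and a few genes are not reported here. The comparison, the 20 gene lists, the 11 marker lists and the rules were chosen with earlier results of these data known. Alternatives were DESeq2 1.42.0, limma 3.58.1 (trend, or voom with library weights), median-ratio scaling, other filters on low counts, robust dispersions, a fit of all 12 samples, the replicate number as a block, and leaving out each library. Sequence came from the RefSeq promoter table, and shared 75-base words from GENCODE M21 transcripts. Counting intervals (95%) and the floor of 3 counts cover counting error only, since reads are not independent molecules.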

Additional observations from a re-analysis of the deposited data

Results flagged for a closer look

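Of the 7 genes called lower by edgeR's quasi-likelihood test of HFD+C1 against HFD, the direct test of whether the change from chow differed with and without C1, 3 are among the genes named by rule. The log2 difference was -1.15 for Cyp3a11 (adjusted p 0.0377), -2.38 for Gadd45g (adjusted p 0.000753) and -1.39 for Phlda1 (adjusted p 0.000580). In each of the 3 genes all HFD+C1 libraries lay below all HFD libraries. The NCD libraries cancel from this difference, which has no chow group given C1 beside it.

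The reads that mapped to several places, which entered no comparison, took 6.73%, 6.92% and 7.08% of the reads of HFD+C1 replicates 1, 2 and 3. Each is above the NCD libraries, of which the highest was 6.28%. The HFD libraries were at 7.28% to 7.50%.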

How the results depend on the processing

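As reported, 460 genes were called, 199 higher and 261 lower. DESeq2 called 2144 (820 and 1324), edgeR without a filter on low counts 3697 (1411 and 2286), a fit of all 12 samples 2162 (895 and 1267) and limma voom with library weights 3205 (1503 and 1702). Median-ratio scaling gave 440, robust dispersions 338 and limma-trend 378. A mean of at least 50 counts gave 309, of which 149 were lower, with 9716 genes tested. The share of calls that were higher was 51.8% there, 50.5% with limma-trend, and 38.2% without a filter, where the median log2 change of all genes moved to -0.72. The replicate block gave 1655 calls (737 and 918). Same-numbered NCD and HFD+C1 samples deviated together at correlations of 0.43, 0.18 and 0.01, and 1 of the 3 HFD+C1 samples correlated best with its own number. Deviations from a mean of 3 libraries depend on each other, so they cannot show whether same-numbered samples share more than a number. Leaving out 1 library gave 11 to 1583 calls, 5 to 805 higher and 5 to 778 lower. Of the 460 genes, 234 were called in the same direction in every other setting that used all libraries, 8 in each of the 6 fits that left out 1, and 4 more, Cyp2b10, Cyp2c55, Cyp3a11 and Gm46110, in 5 of the 6. With all libraries, Cdkn1a kept its call in 5, Kcnip4 in 6 and Cidec, Hao2, AY036118 and Vmn2r-ps16 in 7 of the 9 other settings. Cish, with a log2 change of -0.67, reversed to 0.14 under the replicate block and ranged from -1.54 to 1.37 when 1 library was left out, the highest without NCD replicate 2; the cause was not tested. Members called lower in the cholesterol list numbered 0 to 13 when 1 library was left out and 1 to 21 under the other settings; those called lower in the male-biased list 0 to 13 and 6 to 15; and those called higher in the lipid droplet list 0 to 8 and 3 to 9. Each of the 20 lists had 0 called members in at least 1 fit that left out a library. Before TMM scaling, the 3 counts of the floor correspond to 0.113 to 0.159 CPM in HFD+C1 and to 0.130 to 0.701 CPM in NCD. The highest is in NCD replicate 2, which limits what can be seen of low genes there. On the TMM scale of the levels, 3 counts in NCD replicate 2 are 0.645 CPM.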
